A study of Mus musculus with 16 samples.

Results

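The keratin genes encode the intermediate filament proteins of epithelial cells, and all of those in the count table were examined in sorted mouse skin cells. They were taken as every gene whose symbol is Krt followed by a number and at most 1 letter, which gave 54 of the 55487 genes in the table. The keratin-associated proteins (Krtap) and keratinocyte differentiation-associated protein (Krtdap) carry other symbols and were not members. RNA of mouse skin cells was sequenced in bulk in 16 libraries. Skin had been exposed to hypobaric pressure, a suction that stretches it, and its cells were taken 6 h later; unstretched skin of the same region served as the control. Cell sorting on CD45, the surface protein of leukocytes, gave CD45+ cells, called immune here, and CD45- cells, called stromal. The 4 groups were stromal control (libraries 1, 2, 3 and 4), stromal stretched (5, 6, 7 and 8), immune control (3, 4, 5 and 6) and immune stretched (1, 2, 7 and 8), numbered as in the sample titles. The sources used here do not give strain, genotype, sex, age, the pressure or whether each library came from its own animal, so the p-values measure the spread between these samples, which may be partly technical.

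Keratins fall into type I (acidic) and type II (basic to neutral) proteins, and a filament is built from a pair with 1 chain of each type. Pairs mark the state of an epithelial cell. Keratin 5 and keratin 14 mark the basal layer of the epidermis, keratin 1 and keratin 10 the layers above it, keratin 6 and keratin 16 activated or wounded epidermis, and keratin 8 and keratin 18 simple epithelia. Inside the hair follicle, one set of keratins is made in the inner root sheath and another, the cysteine-rich hair keratins, in the hair shaft. Of the 54 genes, 27 lay in the type I cluster on chromosome 11 and 27 on chromosome 15 with the type II cluster, which also holds the type I gene Krt18.

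The promoters of 5 keratin genes are given here because their levels separate either libraries or fractions in the results that follow. Krt25 and Krt28 (type I) and Krt71 (type II) are inner root sheath keratins with their highest values in the same 2 stromal libraries. Krt20 and Krt36 separated the fractions without overlap. Sequences are the 250 bases before the annotated start in RefSeq, build GRCm38.p6, written 5′ to 3′ on the gene's strand. Capitals mark each match to TATAAA or CCAAT on either strand. The Krt25 promoter lies at chr11:99322952-99323201, minus strand, and that of Krt28 at chr11:99374904-99375153, minus strand. The Krt71 promoter lies at chr15:101743098-101743347, minus strand. Those of Krt20 and Krt36 lie at chr11:99438154-99438403, minus strand and at chr11:100105627-100105876, minus strand.
Krt25: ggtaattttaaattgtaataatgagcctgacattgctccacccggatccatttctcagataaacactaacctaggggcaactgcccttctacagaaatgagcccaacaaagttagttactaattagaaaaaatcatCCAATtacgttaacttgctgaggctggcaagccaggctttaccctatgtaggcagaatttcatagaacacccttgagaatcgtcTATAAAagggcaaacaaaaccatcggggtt
Krt28: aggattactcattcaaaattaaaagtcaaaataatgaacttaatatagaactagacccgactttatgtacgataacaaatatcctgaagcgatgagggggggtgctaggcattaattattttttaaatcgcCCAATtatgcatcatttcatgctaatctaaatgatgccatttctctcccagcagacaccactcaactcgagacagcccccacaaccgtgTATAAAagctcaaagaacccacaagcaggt
Krt71: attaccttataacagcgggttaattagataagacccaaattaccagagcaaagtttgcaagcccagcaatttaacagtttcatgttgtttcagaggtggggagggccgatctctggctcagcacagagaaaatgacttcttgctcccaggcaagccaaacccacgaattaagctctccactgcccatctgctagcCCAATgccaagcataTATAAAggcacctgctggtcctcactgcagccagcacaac
Krt20: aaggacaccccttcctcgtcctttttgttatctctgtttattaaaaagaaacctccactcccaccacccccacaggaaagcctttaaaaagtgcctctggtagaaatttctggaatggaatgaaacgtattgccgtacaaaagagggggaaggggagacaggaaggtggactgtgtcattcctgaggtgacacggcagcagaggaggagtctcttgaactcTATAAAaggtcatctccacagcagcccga
Krt36: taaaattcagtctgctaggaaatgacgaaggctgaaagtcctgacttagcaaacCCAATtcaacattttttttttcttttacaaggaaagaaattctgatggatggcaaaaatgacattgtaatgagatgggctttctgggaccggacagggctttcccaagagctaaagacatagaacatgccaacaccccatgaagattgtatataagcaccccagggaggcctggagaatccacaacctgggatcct
Counted from the start, TATAAA began at position -30 in Krt25 and in Krt28, at -40 in Krt71 and at -29 in Krt20, and was not among the letters of the Krt36 window. RefSeq promoters were at hand for 36 of the 54 keratin genes, 37 windows in all because Krt13 had 2. TATAAA, searched on both strands, was found in 17 of the 37 (45.9%) and in 12.4% of all 32851 promoter windows of the same length. CCAAT was found in 15 of 37 (40.5%) against 33.8% of all windows. GCCNNNGGC, a core of AP-2 binding sites, was found in 5 of 37 (13.5%) against 13.7% of all. A GCCNNNGGC match can contain CCAAT, and a match is a description of the letters and not of a bound site. Windows of neighbouring keratin genes share ancestry and were not treated as independent.

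Total counts were 13563586 to 26944965 per stromal library and 2645421 to 20095580 per immune library, and within each fraction every stretched library was deeper than every control. Ptprc, which encodes CD45, measured 0.0644 to 3.37 CPM (reads of a gene scaled to a common library size, with TMM factors over the 16 libraries) in the stromal libraries and 206 to 702 in the immune ones. All 8 leukocyte markers examined were higher in the immune fraction, in controls and after stretching, and all 8 fibroblast markers were lower. The fibroblast markers summed to 45889 to 75186 CPM in the stromal libraries and to 1768 to 12561 CPM in the immune libraries. Smell and pheromone receptor genes (1738 olfactory and vomeronasal genes) set 3 libraries apart by their reads: immune control 4 (5942 CPM), stromal stretched 7 (408) and stromal stretched 8 (200), against 17.8 to 68.7 CPM in the other 13. The part of these reads in the results was not tested beyond the values given without the 3 libraries.

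Keratin transcripts were present in both fractions and in all 16 libraries. Summed over the 54 genes they amounted to 1919.5, 850.2, 716 and 307 CPM in stromal controls 1 to 4 and to 690.1, 1794, 1156 and 1838 CPM in stromal stretched libraries 5 to 8. In immune controls 3 to 6 the sums were 2440.3, 461, 50.3 and 151 CPM, and in immune stretched libraries 1, 2, 7 and 8 they were 852, 119.8, 408 and 1028 CPM. The 4 groups overlapped. The highest and the lowest keratin sum of the 16 libraries both came from immune controls. Keratin reads were 0.0266% to 0.201% of all counts in the stromal libraries and 0.00454% to 0.248% in the immune libraries. In bulk RNA, fewer cells of a type and less RNA per cell cannot be told apart.

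No keratin gene was without a read, but most were rare. On average over the 16 libraries 9 genes reached 10 CPM and 28 stayed under 1 CPM, and 11 were read in all 16 libraries. Immune control 4, the shallowest library, had reads on 51 of the 54 keratin genes, 27 of them with 1 to 10 reads. The other immune libraries had reads on 20 to 30. Krt14 took the largest part of the keratin sum in 14 libraries, with 36.4% to 57.3%. The exceptions were stromal control 4, where Krt10 led with 31.6%, and immune control 5, where Krt80 led with 28.4% of only 204 keratin reads. Per kilobase of exon, Krt14 had the highest mean level of the 54 genes (252 CPM per kb), followed by Krt17 (50.9), Krt15 (43.7), Krt10 (34.7), Krt5 (26.4), Krt79 (14.3) and Krt16 (14).

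**Figure D1:**
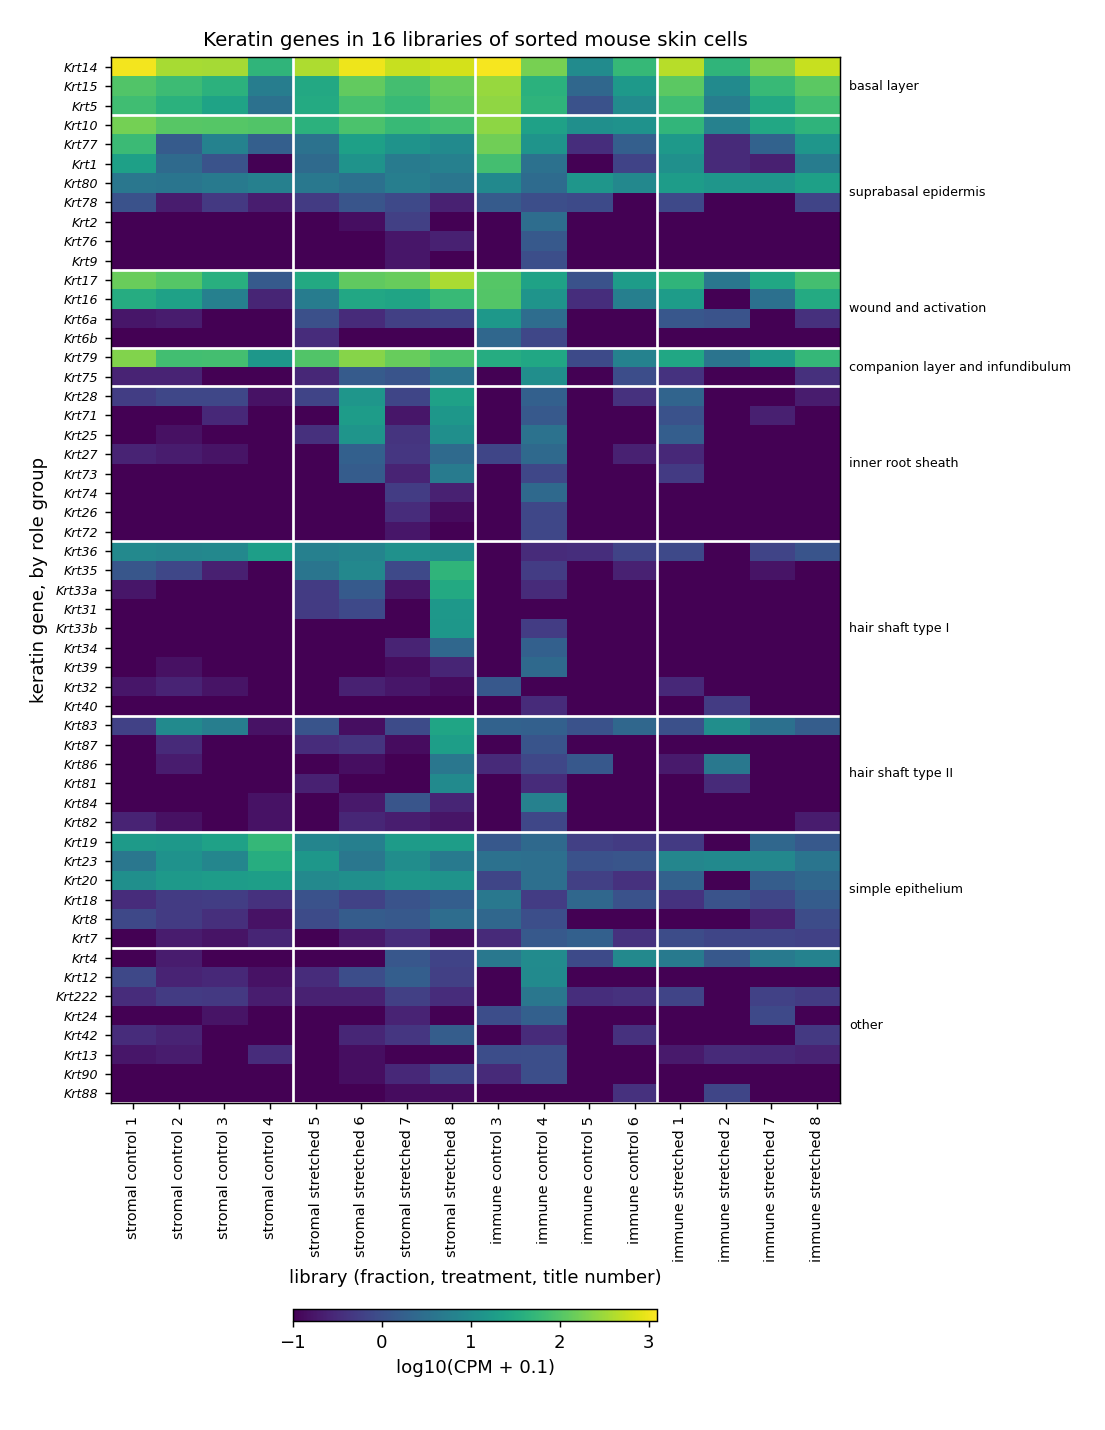
Level of each of the 54 keratin genes (rows, grouped by the cells in which the keratin is known) in each of the 16 libraries (columns), as log10(CPM + 0.1), with white lines between groups. Krt14 is bright in nearly every column, the Krt25, Krt28 and Krt71 rows are bright in stromal stretched 6 and 8, and Krt19, Krt20 and Krt36 are bright in the 8 stromal columns.

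In the stromal fraction, stretching was followed by a call for 1 keratin gene of the 20 that passed the filter on low counts: the hair shaft keratin Krt35 was higher, and no keratin was lower. Calls were made at a Benjamini-Hochberg adjusted p under 0.05 over all 16074 genes tested with edgeR's quasi-likelihood test. Of all genes 4.98% were called and 2.05% were called as higher, so 1 of 20 keratins is close to that background. The median log2 fold change of the 20 keratins was 0.71, with 13 positive, against 0.01 over all genes. This median was -0.01 with the stricter filter, where 7 of 14 were positive, 0.26 without the 3 libraries with receptor reads, and 0.43 to 1.54 with 1 library left out (lowest without stromal control 4, highest without stromal control 1). The 19 other keratins had adjusted p-values from 0.0523 to 0.976. Of the 20, 6 had an unadjusted p under 0.05, close to the share of all genes (4309 of 16074).

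The basal keratins Krt14, Krt15 and Krt5 spread over a wide range within the stromal controls. Krt14 measured 1056, 369, 351 and 47.6 CPM in stromal controls 1 to 4 and 395, 987, 569 and 682 CPM in stromal stretched libraries 5 to 8. Its log2 fold change was 0.54 ± 0.65 (SE) with an adjusted p of 0.636, and stromal control 1 was above all 4 stretched libraries. Krt15, made in basal cells and in the bulge of the hair follicle, measured 96.4, 65.5, 42.9 and 5.43 CPM in the controls and 30.1, 129, 76.1 and 139 after stretching (adjusted p = 0.446). Krt5, the type II partner of keratin 14, measured 68.6, 41.1, 24 and 3.22 CPM in the controls and 32.5, 81.5, 56.8 and 118 CPM after stretching (adjusted p = 0.318). For all 3 genes stromal control 1 was the highest control, stromal control 4 was the lowest of the 8 libraries, and the groups overlapped.

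Krt10, the type I keratin of the suprabasal layers, differed in pattern from the basal genes. It measured 175, 106, 103 and 97 CPM in the stromal controls and 43.3, 87.9, 58.1 and 72.2 CPM in the stretched libraries. Every control was above every stretched library. The log2 fold change of -0.87 ± 0.26 had an adjusted p of 0.071 and was not called. DESeq2 (0.0245) and limma-voom (0.0301) gave adjusted p-values under the threshold, while calling 2312 and 3599 of all 16074 genes against 800. Krt10 was called in 3 of the 17 alternatives and not in 14, with log2 fold changes of -1.04 to -0.11. Its type II partner Krt1 measured 21.6, 2.55, 1.03 and 0 CPM in the controls and 2.48, 12.5, 4.96 and 5.93 CPM after stretching, with no separation (adjusted p = 0.976). Krt77, a type II keratin also placed above the basal layer and around sweat gland ducts, measured 62.2, 1.38, 6.37 and 1.64 CPM in the controls and 3.39, 20.9, 12.6 and 9.22 CPM after stretching. In Krt1 and Krt77 stromal control 1 alone was above all other stromal libraries.

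Among the keratins of activated epidermis, Krt17 and Krt16 carried nearly all reads. Krt17, a type I keratin of hair follicles and wound edges, measured 144, 104, 38.2 and 1.36 CPM in the stromal controls and 31.3, 126, 142 and 375 CPM after stretching. Krt16, induced in wounded epidermis, measured 34.6, 22.1, 5.92 and 0.17 CPM in the controls and 5.18, 28.1, 25 and 57.4 CPM after stretching. Stromal stretched 8 was highest for both and stromal control 4 lowest, and the groups overlapped, with adjusted p-values of 0.438 and 0.58. Krt6a stayed at or under 0.917 CPM and Krt6b at or under 0.229 CPM in the 8 stromal libraries. Krt6a shares 57.5% of its 50-base stretches with other genes, chiefly Krt6b, and Krt16 shares 37.6%, so these values are uncertain. Krt79, a keratin of the follicle's upper opening, measured 210.4, 71.1, 75.3 and 14.5 CPM in the controls and 95.3, 224, 138 and 88.4 CPM after stretching (adjusted p = 0.586).

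Markers of keratinocytes that are not keratins varied between the stromal libraries broadly as the basal keratins did, but not as all epidermal keratins did. The 14 markers (Trp63, Sfn, Perp, Dsp, Dsg3, Dsc3, Col17a1, Itgb4, Lama3, Cdh1, Epcam, Lgals7, Calml3 and Fgfbp1) summed to 931, 302, 239.8 and 40.3 CPM in stromal controls 1 to 4 and 274, 749, 509 and 761 CPM in stromal stretched 5 to 8. None of the 13 tested was called with stretch, in either direction, and their median log2 fold change was 0.84. In the immune controls 3 to 6 the marker sum was 1306, 263, 22.7 and 106 CPM, and in immune stretched 1, 2, 7 and 8 it was 401, 56.9, 144 and 428 CPM. Krt14 amounted to 89.7% to 146% of this sum across the 8 stromal libraries and to 41.3% to 142% across the 8 immune libraries. In the stromal libraries Krt5 amounted to 7.37% to 15.6% of it and Krt15 to 10.4% to 21.7%. The ranges there were wider for Krt17 (3.37% to 49.3%) and Krt10 (9.49% to 241%). Krt80 ran from 0.671% to 63% in the immune libraries. Krt19 ranged from 0.761% to 131% of the marker sum within the stromal libraries, and Krt36 from 0.898% to 49.9%. The high ends of the Krt19 and Krt36 ranges came from stromal control 4. That library had the lowest marker sum of the stromal libraries and the highest Krt19 and Krt36. The part of keratinocyte content in the stretch comparison was not tested.

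**Figure D2:**
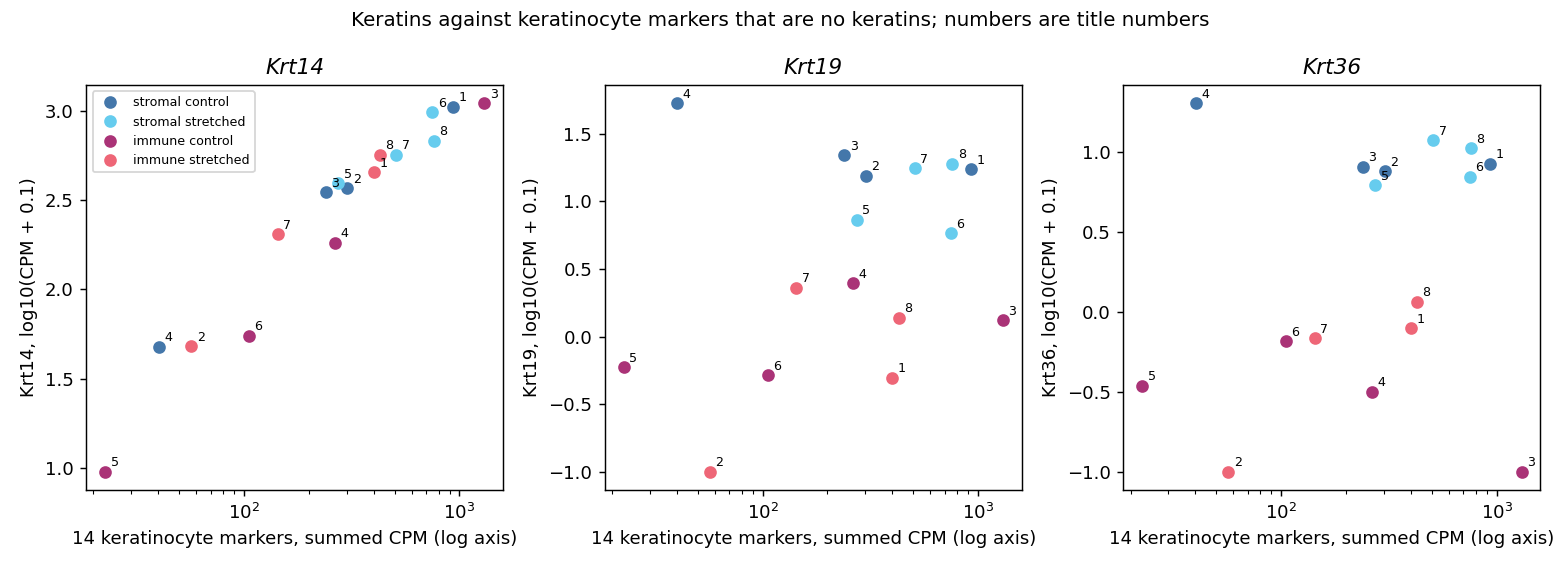
Levels of Krt14, Krt19 and Krt36 (vertical axes, log10(CPM + 0.1)) against the summed CPM of 14 keratinocyte markers that are not keratins (horizontal log axis), 1 point per library, colour by group and number from the sample title. Krt14 runs along the marker sum through both fractions, while Krt19 and Krt36 lie apart by fraction and are highest in stromal control 4.

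The inner root sheath keratins separated libraries within the stretched group. Summed over the 8 genes (Krt25, Krt26, Krt27, Krt28, Krt71, Krt72, Krt73 and Krt74) they gave 0.608, 0.796, 0.901 and 0.0565 CPM in stromal controls 1 to 4 and 0.872, 49.5, 2.25 and 55.4 CPM in stromal stretched 5 to 8. Krt28 measured 0.456, 0.636, 0.644 and 0.0565 CPM in the controls and 0.596, 14.1, 0.62 and 22 CPM in the stretched libraries. Stretched libraries 6 and 8 were high and libraries 5 and 7 lay within the range of the controls. Krt28 had a log2 fold change of 4.38 ± 1.17 with an adjusted p of 0.0523, which is not a call, and DESeq2 gave 0.00769. Of the 16 alternatives that tested Krt28, 3 called it, DESeq2 among them, and 13 did not. Krt71, its type II neighbour in the sheath, measured 0, 18.4, 0.0775 and 14.7 CPM after stretching and had reads in 1 of 4 controls, at 0.193 CPM. Krt25 measured 0.275, 13.9, 0.31 and 11 CPM after stretching and had reads in 1 control, at 0.053 CPM. Neither passed the filter for this comparison, which needs enough reads in 4 libraries, so neither was tested. Across the 4 stromal controls 4 of the 8 genes had no read.

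Several hair shaft keratins, though not Krt36, had their highest value in stromal stretched 8. Krt35 (ENSMUSG00000048013) lies at chr11:100092193-100096241 in GRCm38. Krt35, an early type I keratin of the hair matrix and cuticle, measured 1.14, 0.636, 0.129 and 0 CPM in the stromal controls and 3.81, 8.24, 0.697 and 48.5 CPM after stretching. Stretched libraries 5, 6 and 8 were above every control and library 7 was not. Its log2 fold change was 5.06 ± 1.28 with an adjusted p of 0.0485. Leaving out any library but stretched 5 ended this call, with adjusted p-values of 0.0634 to 0.139, and without stretched 8 the log2 fold change was 3.18 (adjusted p = 0.137). Without the libraries with receptor reads it was 3.67 (adjusted p = 0.267).

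Krt33a, Krt31, Krt33b, Krt87, Krt81 and Krt83 were also highest in that library. Krt33a measured 0.413, 1.34, 0.0775 and 30.9 CPM in stretched libraries 5 to 8 and had 1 read in the 4 controls together. Krt31 measured 0.413, 0.712, 0 and 15.5 CPM and Krt33b 0, 0, 0 and 14.8 CPM, both with no read in the 4 controls, where 3 counts would correspond to 0.159 to 0.228 CPM. Of the type II genes, Krt87 measured 0.229, 0.312, 0.0387 and 19.8 CPM and Krt81 0.138, 0, 0 and 9.18 CPM. The 6 type II shaft genes summed to 1.42, 0.668, 2.01 and 58.8 CPM after stretching and to 0.684, 9.44, 5.54 and 0.17 CPM in the controls. These genes have near copies: Krt81 shares 43.5% of its 50-base stretches, Krt87 36.9%, Krt31 28.1%, Krt33b 24.2%, Krt83 23.2% and Krt33a 21.9%. The split of reads between such copies is therefore uncertain, while Krt35 shares 2.9%. Krt83, the most abundant type II shaft keratin, measured 0.532, 9.07, 5.54 and 0.0565 CPM in the controls and 1.06, 0.0445, 0.775 and 25.4 CPM after stretching (adjusted p = 0.736), and control 2 and stretched 8 were its highest stromal libraries. In the immune fraction Krt83 measured 1.83, 1.73, 0.987 and 2.22 CPM in controls 3 to 6 and 0.889, 10.6, 3.18 and 1.54 CPM in stretched 1, 2, 7 and 8, where stretched 2 was above the other 7 immune libraries.

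Keratin-associated proteins, which cross-link hair keratins in the shaft, had their highest sum in the same library. The 58 Krtap genes summed to 1.67, 1.59, 0.708 and 0.565 CPM in stromal controls 1 to 4 and to 1.65, 2.23, 2.56 and 61 CPM in stromal stretched 5 to 8, and 35 of the 58 had no read even in stretched 8. Only 1 of them passed the filter in this comparison, and it was not called. Tchh, which encodes trichohyalin of the inner root sheath, measured 0.76, 0.69, 0.966 and 0.452 CPM in the controls and 1.51, 2.27, 4.38 and 7.79 CPM after stretching, without overlap. It was called, at a log2 fold change of 2.50 ± 0.54 (adjusted p = 0.0431), and was the 1 of 12 tested filament anchors and binders that was, beside 4.98% of all genes. Dlx3, a homeobox factor of hair follicle differentiation, measured 0.532, 0.265, 0.129 and 0.17 CPM in the controls and 0.642, 3.47, 0.775 and 7.32 CPM after stretching, also without overlap. Its log2 fold change was 3.51 ± 0.85 (adjusted p = 0.0471), and it was the 1 of 16 tested keratinocyte and hair transcription factors that was called. Both calls ended without stromal stretched 6, 7 or 8 or without stromal control 1, 2 or 3, and that of Dlx3 also without stromal control 4. Without the 3 libraries with receptor reads the adjusted p was 0.294 for Tchh, at a log2 fold change of 1.38, and 0.267 for Dlx3.

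**Figure D3:**
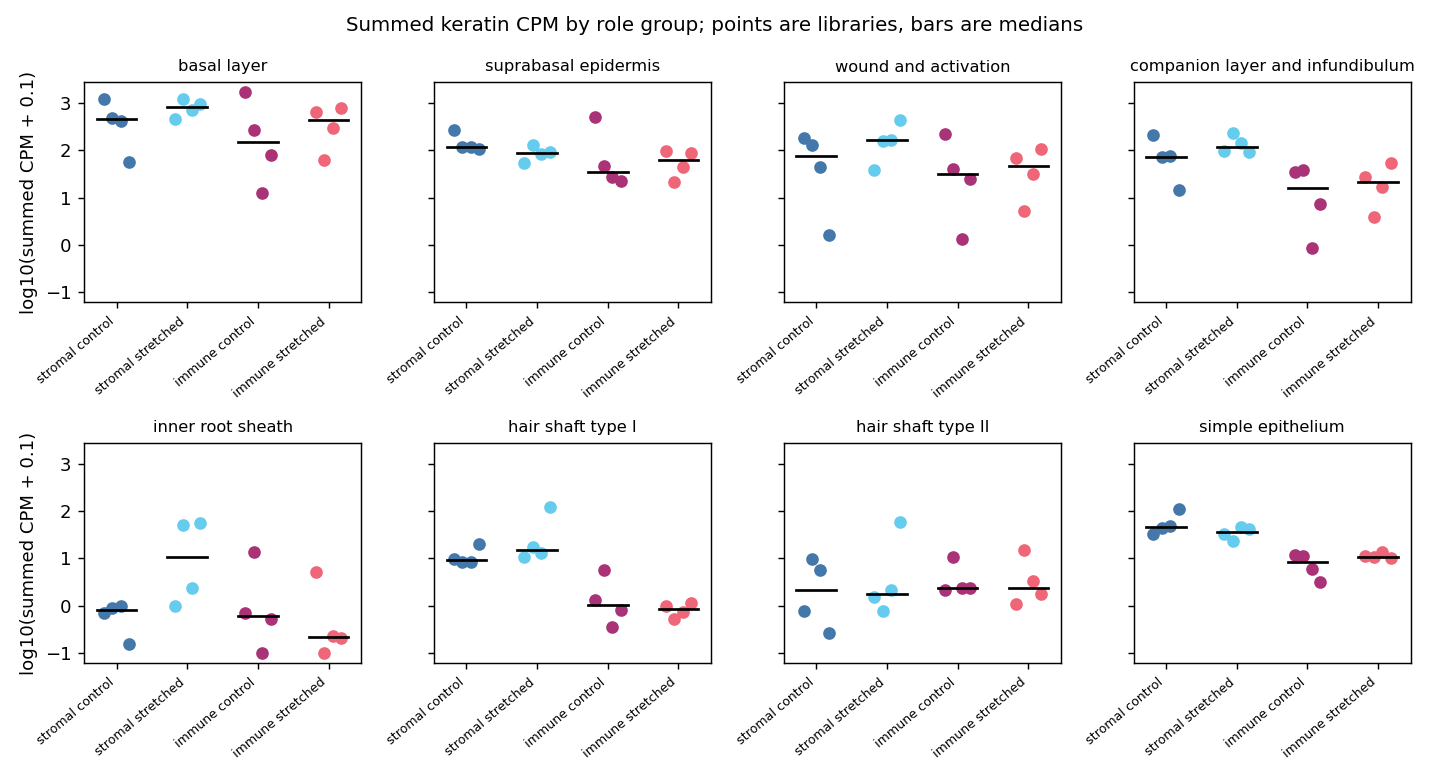
Summed CPM of the keratins in each of 8 role groups, as log10(summed CPM + 0.1), for the 4 libraries of each group (points) with the median of the plotted values (bars). In the inner root sheath panel 2 of 4 stromal stretched libraries lie near 50 CPM (49.5 and 55.4) and the other stromal libraries at 2.25 CPM or less, and in both hair shaft panels 1 stromal stretched library lies above the rest.

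Among the simple epithelial keratins, Krt8 and Krt18 had low counts. Krt8 measured 0.684, 0.424, 0.257 and 0.0565 CPM in the stromal controls and 0.78, 1.47, 1.28 and 2.85 CPM after stretching. Krt18 measured 0.228, 0.424, 0.451 and 0.283 CPM in the controls and 0.963, 0.534, 1.01 and 1.59 CPM after stretching. Both separated the groups without overlap. Krt8 had a log2 fold change of 2.20 ± 0.63 (adjusted p = 0.0621) and Krt18 of 1.56 ± 0.47 (adjusted p = 0.0701), so neither was called. Krt8 shares 29.7% of its 50-base stretches, chiefly with the pseudogene Krt8-ps, and Krt18 shares 0.7%. Merkel cells, which carry these keratins in skin, were represented by 6 markers that summed to 3.12 to 11.6 CPM in the 8 stromal libraries, with 3 tested and none called. In the immune libraries the same markers summed to 9.59 to 93.2 CPM in the controls, highest in control 4, and to 0.83 to 11.2 CPM after stretching.

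Krt19, Krt20 and Krt23 were the abundant members of the simple epithelial group, and Krt36 of the type I shaft group, in the stromal fraction. Krt19 measured 17.1, 15.4, 21.8 and 52.8 CPM in the stromal controls and 7.20, 5.70, 17.4 and 18.8 CPM after stretching. Krt20, known from intestinal and urothelial cells, measured 10.7, 15.5, 18.1 and 19.7 CPM in the controls and 8.26, 10.7, 14.8 and 12.9 CPM after stretching. Krt23 measured 4.10, 12.3, 7.40 and 36.4 CPM in the controls and 14.5, 4.14, 10.3 and 4.74 CPM after stretching. Stromal control 4 was the highest stromal library for all 3 genes. Krt36 measured 8.36, 7.48, 7.98 and 20.1 CPM in the controls and 6.10, 6.90, 11.8 and 10.5 CPM after stretching, again with control 4 highest. The adjusted p-values of the 4 genes were 0.167, 0.284, 0.416 and 0.639.

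In the immune fraction, 0 of the 13 keratins tested were called after stretching, and 0 of all 14183 genes were (0.0%). edgeR's quasi-likelihood test left 1 of the 13 keratins at an unadjusted p under 0.05, and 2467 of all 14183 genes. DESeq2 and limma-voom called 0 keratins while calling 781 and 888 genes in all. The median log2 fold change of the 13 keratins was -0.41, with 4 positive, against -0.02 over all genes. The median was positive with limma-voom (0.93) and without immune control 3 (0.85).

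Epidermal keratins in the immune libraries varied from library to library within each group. Krt14 measured 1105, 182, 9.37 and 54.9 CPM in immune controls 3 to 6 and 453, 48, 204 and 568 CPM in immune stretched 1, 2, 7 and 8. Control 3 was above all others, and control 5 was the lowest. Its log2 fold change of -0.30 ± 1.13 (adjusted p = 0.91) became 1.56 without control 3. Krt5 measured 267, 46.1, 0.987 and 9.32 CPM in the controls and 69.9, 5.40, 29.7 and 72.7 CPM after stretching. Krt15 measured 289.6, 40.9, 2.22 and 16.4 CPM in the controls and 117, 8.93, 58.9 and 118 CPM after stretching. The suprabasal Krt10 measured 256, 21.8, 11.1 and 12.2 CPM in the controls and 49, 6.23, 28.4 and 45.8 CPM after stretching. Control 3 was again the highest library for each of these 3 genes, as it was for the keratinocyte marker sum. Krt1 measured 74.8, 3.24, 0 and 0.556 CPM in the controls and 11.2, 0.208, 0.13 and 5.20 CPM after stretching. Krt77 measured 159.8, 13.2, 0.247 and 1.67 CPM in the controls and 16.4, 0.208, 1.88 and 14.4 CPM after stretching. Krt16 measured 100.3, 13, 0.247 and 5.84 CPM in the controls and 18.1, 0, 3.11 and 31.8 CPM after stretching. Control 3 was the highest immune library for these 3 genes as well. For Krt1, Krt16, Krt17, Krt77 and Krt79 the groups overlapped too, with adjusted p-values of 0.457, 0.613, 0.96, 0.383 and 0.908.

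Krt23, a type I keratin of simple epithelia, had the smallest p of the keratins in the immune fraction. It measured 3.26, 3.03, 0.987 and 1.11 CPM in the controls and 7.61, 8.72, 8.10 and 3.87 CPM after stretching, and every stretched library was above every control. At a log2 fold change of 1.52 ± 0.57, the adjusted p of 0.23 did not pass the threshold. In the stromal fraction the values of Krt23 did not separate, with a control as the highest library. The test of the difference between the fractions gave 2.56 ± 0.88 with an adjusted p of 0.122.

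The difference between the stretch effects of the 2 fractions was tested for 27 keratins, and 0 were called, as were 0 of 18295 genes (0.0%). At an unadjusted p under 0.05 by edgeR there were 11 of the 27 keratins and 4232 of all 18295 genes. DESeq2 called 5 keratins, with 1625 of 18295 genes, and limma-voom 1, with 1453. The median of the 27 differences (immune effect minus stromal effect) was -1.95 on the log2 scale against 0.03 over all genes, with 6 positive. Krt12, with the lowest of the 27 differences (-9.69), had no read in immune stretched libraries. With Krt12 at the bound that 3 counts over the group allow, the median was the same (-1.95). Krt12 stayed below the median at that bound, so the step could not have moved it. Immune control 3 had high epidermal keratins, and without it the median was -0.63. Other settings moved the median as well. It was -0.44 with the stricter filter (15 keratins), -0.58 with limma-voom and -1.06 without the 3 libraries with receptor reads. With no filter it was -3.82 and with the replicate block -4.71.

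Between the sorted fractions, the keratins called were mainly those of simple epithelium and the hair follicle, with Krt4, Krt17 and Krt80 besides, and none of the basal keratins was called. In the controls, Krt19, Krt20, Krt23 and Krt36 were lower in the immune fraction, and none was higher. These were 4 of 15 keratins tested, where 49.4% of all 15142 genes were called and 22.8% were called as lower. After stretching, 10 of 22 keratins were called, where 49.0% of 17116 genes were. The 8 lower ones (25.1% of all genes were lower) were Krt35, Krt28, Krt36, Krt19, Krt20, Krt79, Krt8 and Krt17, and the 2 higher ones (23.9% of all genes were higher) were Krt4 and Krt80. In the controls the share of keratins called was below the share of all genes, and after stretching it was close to it. The share called as lower was not below that of all genes in either comparison. The median log2 fold change of the keratins, immune minus stromal, was -0.60 in the controls and -1.06 after stretching, against 0.08 and -0.06 over all genes. In the controls this median turned positive without immune control 5 (0.28) and without stromal control 1 (0.10).

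Krt36, a type I hair keratin also known from tongue papillae and nails, gave the clearest separation. The gene (ENSMUSG00000020916) lies at chr11:100102007-100105626 in GRCm38. Krt19 (ENSMUSG00000020911) lies at chr11:100140810-100148665 and Krt20 (ENSMUSG00000035775) at chr11:99428403-99438150. Beside its stromal values of 6.10 to 20.1 CPM it measured 0, 0.216, 0.247 and 0.556 CPM in immune controls 3 to 6 and 0.691, 0, 0.583 and 1.06 CPM in immune stretched 1, 2, 7 and 8. All 8 stromal libraries were above all 8 immune libraries. The log2 fold change was -5.14 ± 0.72 in the controls (adjusted p = 0.000204) and -3.87 ± 0.54 after stretching (adjusted p = 0.000397).

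Krt19, a type I keratin of the follicle bulge and of simple epithelia that has no regular type II partner, measured 1.22, 2.38, 0.493 and 0.417 CPM in the immune controls and 0.395, 0, 2.20 and 1.27 CPM in the immune stretched libraries. Its stromal values were 5.70 to 52.8 CPM, and no immune library reached them. The log2 fold change was -4.43 ± 0.65 in the controls (adjusted p = 0.000276) and -3.63 ± 0.71 after stretching (adjusted p = 0.00254). Krt20 measured 0.611, 3.03, 0.493 and 0.278 CPM in the immune controls and 1.78, 0, 1.49 and 2.23 CPM in the immune stretched libraries, against 8.26 to 19.7 CPM in the stromal libraries. It was lower in the immune fraction, with log2 fold changes of -3.70 ± 0.69 (adjusted p = 0.00123) in the controls and -3.10 ± 0.56 (adjusted p = 0.00159) after stretching. Krt19 and Krt20 share no 50-base stretch with another gene and Krt36 shares 0.4% of its stretches. Each kept its call and its direction in both conditions under all 17 alternatives, including each omission of a library.

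Krt23 was lower in the immune controls, with a log2 fold change of -2.69 ± 0.72 (adjusted p = 0.0101), and without stromal control 4, its highest library, of -1.78 (adjusted p = 0.0435). After stretching its log2 fold change was -0.41 ± 0.45 (adjusted p = 0.467). Krt79 measured 34, 27.7, 0.74 and 6.53 CPM in the immune controls and 27.2, 3.74, 16.3 and 53.2 CPM in the immune stretched libraries. After stretching it was lower in the immune fraction, with a log2 fold change of -2.56 ± 0.63 (adjusted p = 0.00811), with every stromal stretched library above every immune stretched one. In the controls the log2 fold change was -2.28 ± 0.92 (adjusted p = 0.0611), and the groups overlapped, as immune control 3 (34 CPM) and immune control 4 (27.7) exceeded stromal control 4 (14.5). Sebaceous gland markers, from the gland that opens into the same part of the follicle, summed to 927 to 1934 CPM in the stromal libraries and 114 to 608 CPM in the immune ones, and 4 of 6 tested were lower in the immune controls and 6 of 6 after stretching, where 22.8% and 25.1% of all genes were lower.

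Krt35, Krt28, Krt17 and Krt8 were also lower in the immune fraction after stretching. The call of Krt35 held under all 16 alternatives that tested it, and those of Krt28, Krt17 and Krt8 did not. Krt35 passed the filter on low counts only through the stromal stretched libraries. In the filtered fits it could therefore enter this comparison only as lower in the immune fraction. Its hold under these alternatives is no separate support. Krt35 had 1718 reads in the 4 stromal stretched libraries and 1 read in the 4 immune stretched ones, a ratio of 849 after scaling for depth (95% exact binomial interval 152 to 33553, counting error only). Stromal stretched 8 held 1432 of the 1718 reads. Its fitted log2 fold change was -9.25 ± 1.73 (adjusted p = 0.00198), a value that depends on the prior count. It was -7.38 without stromal stretched 8 and -11.21 without immune stretched 7, which held the 1 read. In the immune controls 3 to 6 Krt35 measured 0, 0.432, 0 and 0.139 CPM. Krt28 measured 1.98, 0, 0 and 0.106 CPM in the immune stretched libraries and was lower, with a log2 fold change of -4.30 ± 1.47 (adjusted p = 0.0334). The groups overlapped, as immune stretched 1 (1.98 CPM) exceeded stromal stretched 5 and 7. Krt17 measured 47.3, 3.94, 27.9 and 76 CPM and was lower, with a log2 fold change of -2.25 ± 0.83 (adjusted p = 0.0441). Krt8 measured 0, 0, 0.13 and 0.796 CPM and was lower, with a log2 fold change of -2.55 ± 0.84 (adjusted p = 0.0287). For both, immune stretched 8 was above stromal stretched 5, so the groups overlapped. In immune controls 3 to 6 Krt28 measured 0, 1.73, 0 and 0.278 CPM, Krt17 104, 23.1, 0.987 and 18.6 CPM and Krt8 2.24, 0.865, 0 and 0 CPM. Krt17 was highest in control 3 and lowest in control 5, and Krt8 had no read in controls 5 and 6. Omission of stromal stretched 8 ended the calls of Krt28, Krt17 and Krt8, with adjusted p-values of 0.0921, 0.144 and 0.0825, and omission of stromal stretched 6 or immune stretched 7 ended each of them too. Omission of immune stretched 1 ended the calls of Krt17 and Krt8, that of immune stretched 8 ended the call of Krt28, and that of stromal stretched 7 ended the call of Krt17. Without the 3 libraries with receptor reads the adjusted p-values of Krt28, Krt17 and Krt8 were 0.0868, 0.34 and 0.159, with a log2 fold change of -1.16 for Krt17.

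Krt80 and Krt4 were higher in the immune fraction after stretching. Krt80 (ENSMUSG00000037185) lies at chr15:101347444-101370162 in GRCm38. Krt80, a type II keratin found broadly in differentiating epithelia, measured 4.36, 3.12, 5.62 and 3.90 CPM in stromal stretched 5 to 8 and 18.2, 14.1, 13.9 and 21.1 CPM in immune stretched 1, 2, 7 and 8, without overlap. Krt80 was higher by a log2 fold change of 1.84 ± 0.28 (adjusted p = 0.000656). In the controls it measured 4.18, 3.77, 4.83 and 6.05 CPM in the stromal and 8.76, 2.59, 14.3 and 8.20 CPM in the immune libraries, with a log2 fold change of 0.95 ± 0.47 (adjusted p = 0.117). Only immune control 4 lay below the stromal controls, and without it the value was 1.15 (adjusted p = 0.02). Krt80 overlaps the opposite-strand gene Gm35853 in 263 exonic bases, and whether the counting used strand is not given in the sources used here.

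Krt4, a type II keratin of oral and oesophageal lining, measured 0, 0, 1.20 and 0.576 CPM in the stromal stretched and 4.54, 1.25, 4.86 and 6.47 CPM in the immune stretched libraries, again without overlap. Its log2 fold change was 3.08 ± 1.01 (adjusted p = 0.0286), a call that ended without stromal stretched 8 or without any of immune stretched 1, 7 and 8 (adjusted p = 0.055 to 0.0654). In the controls Krt4 had 2 reads in the 4 stromal libraries together and 128 in the 4 immune libraries, a ratio of 201 (95% exact binomial interval 54.5 to 1677, counting error only). The immune controls measured 4.28, 9.51, 0.74 and 8.34 CPM. It did not pass the filter in that comparison. Its type I partner Krt13 stayed at or under 0.865 CPM in all 16 libraries.

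**Figure D4:**
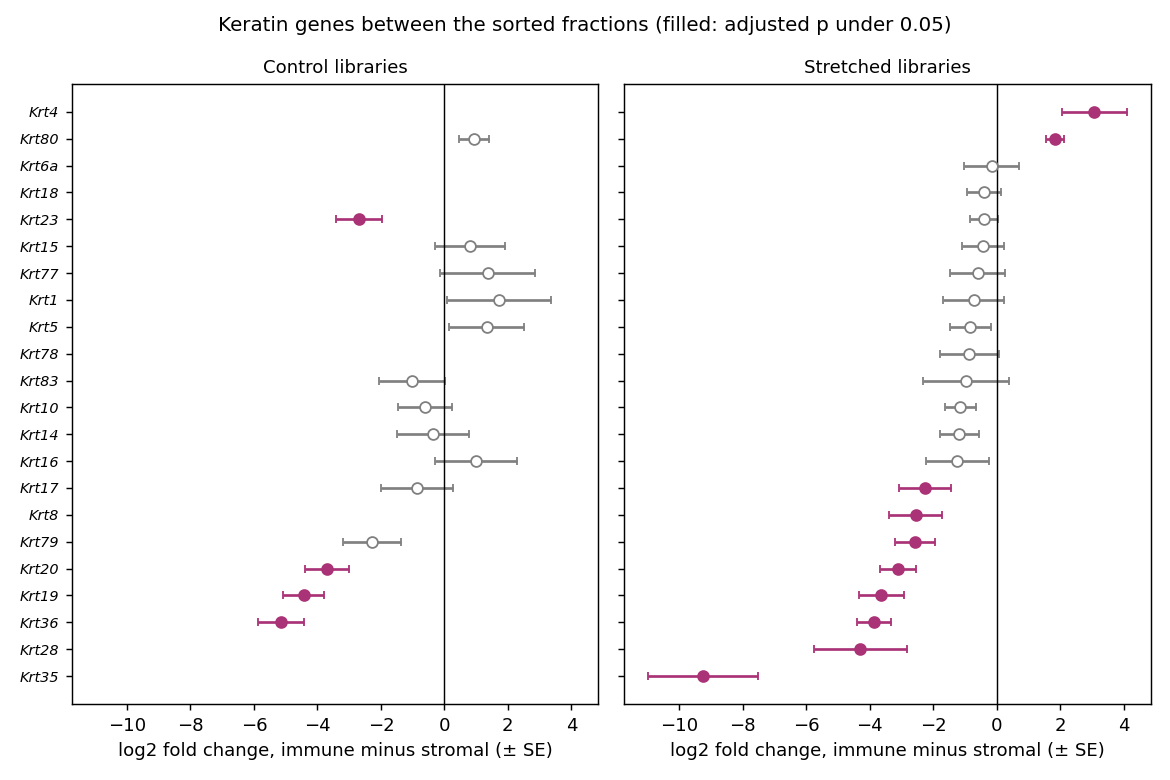
Log2 fold change, immune minus stromal, with its standard error for the 22 keratins tested in the stretched libraries (right) and the 15 of them tested in the controls (left), with filled points for an adjusted p under 0.05. Krt36, Krt19 and Krt20 lie below -3 in both panels (-5.14 to -3.10), and Krt80 and Krt4 are the 2 filled points above 0 on the right.

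Krt14, Krt5, Krt15, Krt10, Krt1, Krt16 and Krt77 did not pass the test between fractions. Krt14 had a log2 fold change of -0.35 ± 1.14 in the controls (adjusted p = 0.817) and -1.18 ± 0.61 after stretching (adjusted p = 0.131). Krt5, Krt15, Krt10, Krt1, Krt16 and Krt77 had adjusted p-values of 0.373, 0.56, 0.579, 0.408, 0.538 and 0.475 in the controls and of 0.302, 0.602, 0.0796, 0.552, 0.32 and 0.583 after stretching. The keratinocyte markers that are not keratins gave 0 of 12 called in the controls, where 49.4% of all genes were, and 7 of 14 called after stretching, where 49.0% were. All 7 were lower in the immune fraction, where 25.1% of all genes were called as lower. After stretching the median log2 fold change of the 14 markers was -1.42, with 0 positive. In the controls that of the 12 tested was 0.88, with 10 positive.

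Type II and type I partners were compared per kilobase of exon. In all 16 libraries Krt5 was below Krt14, with a ratio of 0.0520 to 0.202 (median 0.0897). Krt1 was below Krt10 in all 16, with a ratio of 0 to 0.14 (median 0.0334). Krt6a was below Krt16 in the 13 libraries with at least 10 reads of Krt16, at 0 to 0.14. Krt8 and Krt18 were closer to each other, at ratios of 0.147 to 2.02 in the 7 libraries with at least 10 reads of Krt18. Krt71 exceeded Krt27 in stromal stretched 6 (7.71) and 8 (4.23) and lay below it in immune control 4 (0.387). Krt14 shares 14.4% of its 50-base stretches and Krt5 12.2%, and the sources used here do not say how reads that fit several genes were counted. Exon length in the annotation is that of all transcripts merged, and the protocol's cDNA coverage is not known, so these are ratios of reads per length and not of molecules.

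Among the other genes of keratin biology, the filament anchors and binders gave 1 of 9 tested lower in the immune controls and, of 13 tested after stretching, 2 higher and 3 lower. Among all genes 22.8% were lower in the controls, and 23.9% were higher and 25.1% lower after stretching. The keratinocyte and hair transcription factors gave 1 of 13 higher in the immune controls, Gata3, which T cells express as well as the inner root sheath. After stretching 1 of 16 was higher, again Gata3, and 7 were lower, among them Sox9 (log2 fold change -1.91, adjusted p = 0.00249) and Lhx2 (-2.58, 0.0148), both factors of hair follicle stem cells. These 8 of 16 are about the 49.0% of all genes called, but the 7 lower of 16 are above the 25.1% called as lower. The median log2 fold change of the 16 was -1.66, with 1 positive. In the controls that of the 13 tested was 0.63, with 8 positive. In the immune stretch comparison and in the difference of effects, 0 of either list were called.

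Of the 27 keratins that passed no filter, Krt33a, Krt87, Krt31, Krt33b, Krt81, Krt73, Krt27, Krt34 and Krt42 were highest in stromal stretched 8. Krt84 (6.27 CPM), Krt222 (4.11 CPM), Krt2, Krt74, Krt39, Krt24, Krt76, Krt9, Krt13, Krt90, Krt82, Krt26 and Krt72 were highest in immune control 4. Krt6b and Krt32 were highest in immune control 3, Krt7 in immune control 5, and Krt88 and Krt40 in immune stretched 2. Outside immune control 4, none of Krt2, Krt9, Krt26, Krt72, Krt74, Krt76 and Krt40 exceeded 0.503 CPM. Several of them were read only in libraries with receptor-gene reads: Krt9 and Krt72 had reads in immune control 4 and stromal stretched 7, and Krt74 and Krt76 in these and stromal stretched 8. The part of receptor-gene reads in these values was not tested. Krt12, the corneal keratin, reached 9.08 CPM in immune control 4 and 1.59 CPM at most elsewhere, and 42.0% of its 50-base stretches are shared, chiefly with the opposite-strand gene A830036E02Rik. Of the 54 genes, 13 share at least 20% of their 50-base stretches with another gene and 12 have exons that another gene overlaps.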

How the data were processed

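The counts deposited by the authors, whole reads per Ensembl gene ID in 16 libraries, were used as they stand. Libraries were made with SMART-Seq mRNA LP and Nextera XT kits, per the labels' protocols. FastQC 0.11.9, STAR and build mm10 were used, per the submitters' processing notes. The counting tool, its annotation and its use of strand are not stated in the sources used here. Symbols came from the GENCODE annotation of GRCm38 given with the data, which matched 55394 of 55487 IDs. Where 1 of 107 symbols belonged to more than 1 ID, it went to the ID with most reads. No other column of per-sample values was present (0).

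Each comparison was fitted on its own groups with edgeR 4.0.16 (R 4.3.3): genes kept by filterByExpr (minimum count 10, minimum total 15), TMM scaling, quasi-likelihood F test, and Benjamini-Hochberg adjustment over all genes tested with a threshold of 0.05. The difference of stretch effects used all 16 libraries and an interaction term. Standard errors were taken from the F statistic. CPM values shown are scaled with TMM factors over the 16 libraries. A count of 3 corresponded to 0.102 to 0.740 CPM per library; intervals and such floors cover counting error only, since PCR reads are not independent molecules. Alternatives were RLE factors, DESeq2 1.42.0, limma-voom (limma 3.58.1), no filter, a filter of 50 reads in 4 libraries, 1 fit of all libraries, transcript length offsets, a replicate block, and omission of each library or of the 3 with receptor-gene reads. On simulated counts with 200 changed genes, 4-fold changes were recovered at 86% for stromal stretch and 57% for immune stretch. Recovery was 34% for the difference of effects, 63% for the sort in controls and 71% for the sort after stretching. The changed genes were drawn from those with higher counts, and each gene was simulated independently. Swings of many keratins together between libraries were not simulated, so these rates do not carry over to the keratins. Shared sequence is the share of a gene's 50-base stretches found in exons of another gene. No 2 libraries of a group were copies: chi-square per degree of freedom was 28.1 to 280.1.

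Members and lists were chosen with earlier results of these data known. The keratins described by library are those called in any comparison, the 12 with the largest mean CPM and the most abundant of each role group. Other keratins named with values (Krt18, Krt25, Krt31, Krt33a, Krt33b, Krt71, Krt81, Krt87 and others) were chosen after their values were seen.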

Additional observations from a re-analysis of the deposited data

Results flagged for a closer look

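In each group of 4 libraries, the gap between an extreme library and its nearest neighbour was divided by the range of the group for the keratins named above, and 19 of 76 sets of a gene and a group passed Dixon's 95% critical value. Chance flags about 1 in 20 groups of normally spread values, but CPM were used here without a log transform. All 19 flagged values were the highest of their group, so their number cannot be set against that rate. Genes that vary together do not count separately. No keratin had all libraries of 1 fraction on one side of the controls and those of the other fraction on the opposite side (0 genes). Immune control 3 held 7 of the flagged values: Krt14 at 1105 CPM, Krt15 at 289.6, Krt5 at 267, Krt10 at 256, Krt77 at 159.8, Krt16 at 100.3 and Krt1 at 74.8 CPM, where the next immune controls had 182, 40.9, 46.1, 21.8, 13.2, 13 and 3.24 CPM. Stromal control 1 was apart for Krt10 (175 CPM), Krt77 (62.2) and Krt1 (21.6). The keratinocyte marker sum was also highest in these 2 libraries within their groups.

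Stromal control 4 was apart for Krt36, at 20.1 CPM. Stromal stretched 8 was apart for the hair shaft keratins Krt35 (48.5 CPM) and Krt83 (25.4 CPM). The other flags rest on 20 reads or fewer. Krt20 and Krt28 in immune control 4 measured 3.03 and 1.73 CPM (14 and 8 reads). Krt28 in immune stretched 1 measured 1.98 CPM (20 reads), and Krt8 in immune stretched 8 measured 0.796 CPM (15 reads). Krt4 in stromal control 2 measured 0.106 CPM (2 reads) and Krt35 in immune stretched 7 measured 0.0648 CPM (1 read), where the other libraries of their groups had none.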

How the results depend on the processing

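With stretch in the stromal fraction 1 of 20 keratins was called, with 800 of 16074 genes. The count was 0 with RLE factors and the stricter filter, with 677 of 16074 and 1378 of 11885 genes. It was 0, with 0 genes, for all 16 libraries in 1 fit, length offsets or without the 3 libraries with receptor reads. DESeq2 called 4 of 20, with 2312 of 16074 genes, and limma-voom 3 of 20, with 3599. With no filter it was 17 of 53, with 2115 of 41025. With 1 library left out it was 0 to 4. The 4, of 22, came without stromal stretched 5, with 1589 of 16650 genes. For the difference of effects 0 of 27 were called, with 0 of 18295 genes. DESeq2 called 5 of 27, with 1625 of 18295 genes, and limma-voom 1 of 27, with 1453. With no filter it was 15 of 54, with 3924 of 44374. With 1 library left out it was 0 to 5. The 5, of 31, came without immune control 6, with 1495 of 19613 genes. Between fractions in the controls 4 of 15 were called, with 7484 of 15142 genes. It was 7 of 15 with limma-voom, with 8814 genes, and 7 of 53 with no filter, with 8304 of 40451. In 1 fit of all libraries it was 9 of 27, with 9804 of 18295. With 1 library left out it was 5 to 6, with 6366 to 8566 genes. After stretching 10 of 22 were called, with 8380 of 17116 genes. It was 24 of 54 with no filter, with 8774 of 41452, and 6 of 14 with the stricter filter, with 6866 of 12484. With 1 library left out it was 6 to 14. The 6, of 22, came without stromal stretched 8, with 7002 of 17409 genes. In the immune fraction no alternative called a keratin with stretch (0), while limma-voom called 888 of 14183 genes. The log2 fold change of Krt14 with stretch in the immune fraction turned positive with limma-voom (2.01), without immune control 3 (1.56) and without immune stretched 2 (0.0536), with -0.72 to 1.56 over the omissions of 1 library, and that between fractions in the controls without immune control 5 (0.0213) and without stromal control 1 (0.48), with -2.32 to 0.48 over the omissions. The median of keratins between fractions in the controls was 2.35 with no filter and 0.94 in 1 fit of all libraries. Beyond the number of genes tested with each filter, the cause was not tested. The limit that depth sets on each comparison was not tested.

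The title numbers did not pair the libraries: correlations of deviations between same-numbered libraries were -0.12 to 0.16 over 8 numbers, with 3 over 0.1 and 0 matching best with their own number. With the replicate block, 0 keratins were called with stretch in the stromal fraction (median 2.74). Only numbers 3 and 4 occur in both control groups, and only 7 and 8 in both stretched groups. With the block, the difference between fractions therefore rests on those libraries alone, and its calls carry little weight. In the controls 10 keratins were called, where 3642 of all 15142 genes were. Of these 10, 7 were higher in the immune fraction, where none was without the block. After stretching 16 keratins were called, where 7291 of all 17116 genes were. Krt14 between fractions in the controls became 1.98 and was called as higher (adjusted p = 0.0403 by edgeR), and after stretching it was called as lower (-1.04, adjusted p = 0.0201). Krt79 in the controls became 0.0647, the median there 1.11, and the call of Krt23 was lost (adjusted p = 0.0625 by edgeR).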
